A study of Homo sapiens with 15 samples.

Results

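The Eph receptors and ephrins described here were 10 genes, EPHA1, EPHA2, EPHA4, EPHB2, EPHB3, EPHB4, EPHB6, EFNA1, EFNB1 and EFNB2, taken by symbol from the 26475 genes of an RNA-seq count table. They were 7 receptors and 3 ephrins of the 22 genes of this family in the table. They were chosen by name as a family, with their measured levels and changes across these 5 groups already known, so the p-values below describe these libraries and are not independent evidence for the choice of genes. The cells were A549, a line of epithelial cells from a human lung cancer, sequenced in 5 groups of 3 libraries. The groups were cells given interleukin-4 (IL4, a type 2 immune cytokine) with a substance named as Compound A, cells given IL4 with an siRNA pool against ALOX15, cells given IL4 with a control siRNA pool, cells given IL4 alone, and untreated cells. IL4 was used at 10 ng/ml in all 4 treated groups, the ALOX15 siRNA at 1 uM, and the labels give 48 h of treatment. ALOX15 encodes arachidonate 15-lipoxygenase, an enzyme that oxygenates polyunsaturated fatty acids. What Compound A is, its dose and vehicle, and the dose of the control siRNA are not given in the sources used here. No group had Compound A or either siRNA without IL4.

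Eph receptors form a large family of receptor tyrosine kinases, and their ligands, the ephrins, are held on the surface of neighbouring cells, so that signalling needs contact between cells. A-class ephrins are tied to the membrane by a lipid anchor and mostly bind A-class receptors, while B-class ephrins span the membrane and mostly bind B-class receptors; EPHA4 binds ligands of both classes. Signals run forward into the cell that carries the receptor and in reverse into the cell that carries the ephrin, and in epithelia they act on adhesion, repulsion and the sorting of cells into compartments.

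The promoters of the 4 B-class genes with the largest differences between IL4-treated and untreated cells are shown because EPHB2 and EFNB2 were higher with IL4 while EPHB3 and EFNB1 were lower. Each is the RefSeq window on GRCh38.p14 of 250 bases before to 50 bases after the gene's start, read 5′ to 3′ on the gene's strand, with GC boxes (GGGCGG or its complement CCGCCC) in capitals. EPHB2 lies at chr1:22710588-22710887 on the plus strand, EFNB2 at chr13:106535613-106535912 on the minus strand, EPHB3 at chr3:184561535-184561834 on the plus strand and EFNB1 at chrX:68828771-68829070 on the plus strand.
EPHB2: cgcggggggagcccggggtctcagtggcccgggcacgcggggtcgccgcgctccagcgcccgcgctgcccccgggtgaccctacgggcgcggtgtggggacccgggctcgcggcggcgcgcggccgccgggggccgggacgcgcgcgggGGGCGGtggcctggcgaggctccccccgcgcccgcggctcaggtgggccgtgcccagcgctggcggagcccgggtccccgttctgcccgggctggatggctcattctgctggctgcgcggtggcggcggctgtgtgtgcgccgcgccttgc
EFNB2: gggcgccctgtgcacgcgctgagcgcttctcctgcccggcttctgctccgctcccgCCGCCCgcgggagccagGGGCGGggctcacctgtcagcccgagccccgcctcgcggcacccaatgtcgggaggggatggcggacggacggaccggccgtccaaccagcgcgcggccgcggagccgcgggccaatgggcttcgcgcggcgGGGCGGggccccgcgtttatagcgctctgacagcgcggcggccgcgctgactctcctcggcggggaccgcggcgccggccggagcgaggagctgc
EPHB3: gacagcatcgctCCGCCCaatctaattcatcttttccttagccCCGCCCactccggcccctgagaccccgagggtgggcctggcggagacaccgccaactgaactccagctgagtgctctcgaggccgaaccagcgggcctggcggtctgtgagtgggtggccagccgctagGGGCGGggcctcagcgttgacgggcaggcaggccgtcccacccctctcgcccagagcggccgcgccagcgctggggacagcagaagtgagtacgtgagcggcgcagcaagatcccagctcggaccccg
EFNB1: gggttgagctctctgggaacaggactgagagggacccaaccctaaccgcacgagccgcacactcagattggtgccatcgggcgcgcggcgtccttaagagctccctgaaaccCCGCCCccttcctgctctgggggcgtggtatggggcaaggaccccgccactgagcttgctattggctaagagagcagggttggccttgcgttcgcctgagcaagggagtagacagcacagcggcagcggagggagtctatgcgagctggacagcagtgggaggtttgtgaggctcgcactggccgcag

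The windows held 1 GC box in EPHB2, 3 in EFNB2, 3 in EPHB3 and 1 in EFNB1, so the count of these letters did not divide the higher from the lower genes. All 10 genes had at least 1 GC box, against 44.6% of 27305 RefSeq promoter windows of 300 bases. Among windows with a GC content at or above the lowest of the 10 genes 53.5% held one, and among those at or above their median 89.5% did. The other 6 motifs searched, on both strands, were TTCNNNNGAA (a STAT6 motif, 6.37% of all windows), TTCNNNGAA (STAT, 7.88%), ATCAAAG (TCF/LEF, 2.64%), CCGGAAG (ETS, 10.7%), CACGTG (E-box, 7.43%) and TGANTCA (AP-1, 7.76%). None of these 6 was found in any of the 10 windows, which says only that the letters are not in these 300 bases.

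Totals ran from 6407936 to 11031246 estimated counts per library, so that 1 count was worth 0.0896 to 0.157 CPM (counts per 1e6 counts, scaled by TMM factors). ALOX15 averaged 0.236 ± 0.0911 CPM with its siRNA and 3.58 ± 0.313 CPM with the control siRNA (SD, n = 3 each), a log2 change of -3.85 (SE 0.43, edgeR adjusted p = 8.5e-05). These levels rest on 5 and 73 summed counts. ALOX15 was also lower with Compound A, at 2.21 ± 0.388 CPM, than with IL4 alone, at 5.27 ± 0.661 CPM (log2 -1.23, SE 0.25, edgeR adjusted p = 0.0033). Against control siRNA, Compound A did not pass for ALOX15 (log2 -0.68, SE 0.27, edgeR adjusted p = 0.163). Control siRNA against IL4 alone did not pass either (log2 -0.55, SE 0.24, edgeR adjusted p = 0.898). In both of these comparisons the groups did not overlap. Untreated cells had 0.136 ± 0.151 CPM. Summed epithelial markers, mostly the keratins KRT8 and KRT18, stood at 9794 to 12066 CPM with IL4 and 6344 to 7168 CPM in untreated cells, while EPCAM averaged 9.57 ± 1.61 CPM with IL4 and 13.9 ± 0.777 CPM in untreated cells. The part of these marker levels in the changes with IL4 was not tested. The labels liken the line to alveolar type II cells. Summed markers of those cells reached 57.9 to 74.4 CPM with IL4 and 38.9 to 39.6 CPM in untreated cells, mostly the lipid transporter ABCA3, while the surfactant gene SFTPB had no count in any library and SFTPC had 3 in all. Summed endothelial markers did not exceed 0.819 CPM, and the 7 immune markers, 1 of which could be tested, summed to 7.64 to 21.8 CPM with PTPRC, CD3E and MS4A1 at 0 in every library. The 4 neural markers, 3 of which could be tested, summed to 189 to 227 CPM, so markers of other cell types were not all near the floor. Untreated libraries lay at -36.5 to -35.3 on component 1 of log2 CPM and the IL4-treated ones no lower than 5.65; IL4 replicate 1 stood apart from its group on component 2, at 34.4 against 5.35 and -2.61. Values without that library are given beside the main results on the 8 tested genes that involve the IL4 group. Nothing in the labels says that replicates were separate cultures, so the p-values measure the spread between these libraries, which may be technical.

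Levels of different genes were compared as CPM per kilobase of the longest coding transcript. EPHA2, the most abundant receptor, had 67.1 ± 4.73 CPM per kb with IL4 and 52.0 ± 1.11 in untreated cells (SD, n = 3 each). EPHB4 was next, at 13.7 ± 1.54 CPM per kb with IL4 and 17.0 ± 1.72 in untreated cells. The ephrins EFNA5, EFNA1 and EFNB1 followed with IL4, at 8.85, 7.14 and 6.64 CPM per kb, and the libraries of EFNA1 and EFNB1 overlapped. In untreated cells the order of these 3 was EFNB1 at 9.71, EFNA5 at 8.14 and EFNA1 at 6.58 CPM per kb, with overlap between EFNB1 and EFNA5 libraries.

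Per length, the receptors EPHB2 and EPHB3 stood apart with IL4 and at about the same level in untreated cells. With IL4, EPHB2 ranked 6 of the 22 family genes at 4.42 ± 0.0996 CPM per kb and EPHB3 ranked 12 at 0.572 ± 0.106 (SD, n = 3). In untreated cells EPHB3 ranked 6 at 2.04 ± 0.272 CPM per kb and EPHB2 ranked 8 at 1.96 ± 0.157, and the libraries of EPHB3, EFNA4 and EPHB2 overlapped from one to the next, so the order of EPHB2 and EPHB3 was not settled there. EFNB2 ranked 8 with IL4 at 1.01 ± 0.107 CPM per kb and 14 in untreated cells at 0.271 ± 0.162. The length used for EPHB2, 10816 bases, is 12107 bases if all annotated exons are merged, which left its ranks as they were. That used for EPHB3 is 4236 bases. By reads alone EPHB2 was the higher in untreated cells too, at 2.06 to 2.72 reads per EPHB3 read. A shorter EPHB2 transcript in these cells would raise its level per length, and which transcripts were present was not tested.

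**Figure D1:**
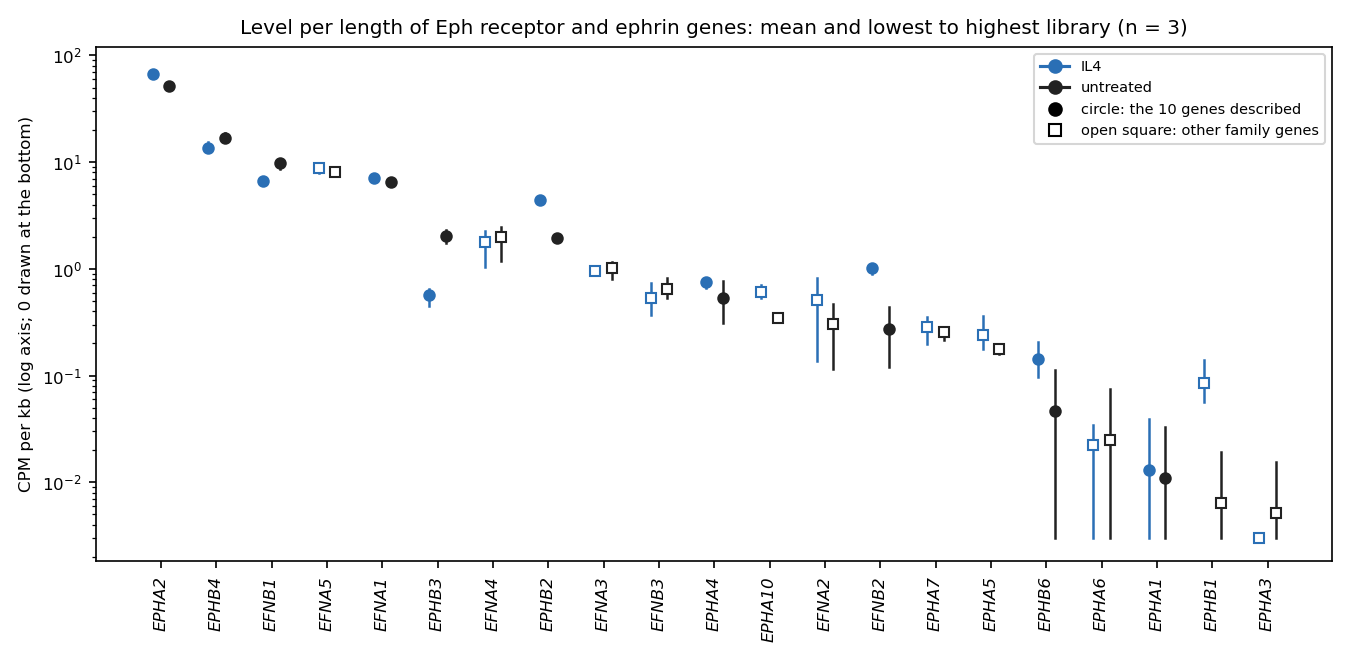
Level per length (CPM per kb, log axis) of the Eph receptor and ephrin genes with a count in IL4 or untreated cells, ordered by the untreated level. Markers are group means and lines run from the lowest to the highest of 3 libraries; EPHB3 stands at 0.572 with IL4 and 2.04 in untreated cells, and EPHB2 at 4.42 with IL4 and 1.96 in untreated cells.

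Summed over the 5 receptors that passed the filter on low counts, the level was 86.5 ± 6.10 CPM per kb with IL4 and 73.6 ± 2.71 in untreated cells, most of it EPHA2. Summed over the 3 ephrins it was 14.8 ± 0.675 CPM per kb with IL4 and 16.6 ± 1.32 in untreated cells (SD, n = 3 each), and the ranges met, at 14.0 to 15.2 with IL4 and 15.1 to 17.6 untreated. In such bulk libraries, fewer cells that express a gene and less of its RNA per cell cannot be told apart.

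The effect of IL4 alone on these genes came from the IL4 and untreated libraries. EPHA2, EPHB2 and EFNB2 were higher with IL4, and EPHB3, EPHB4 and EFNB1 were lower. Of the 10 genes, 8 could be tested, and 3 passed in each direction at an adjusted p of 0.05, where 11.2% of the 12795 genes tested passed as higher and 11.6% as lower, 22.9% in all. In 5 of the 8 the groups did not overlap, as in 33.5% of all genes tested. The 8 passed the filter through their own levels in these groups, so these shares are given as a description. The median log2 change of the 8 was 0.24, against -0.02 over all genes tested.

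EPHA2, an A-class receptor abundant in many epithelial tumours, lies on the minus strand of chromosome 1 at 16124337 to 16156087. It had 287, 261 and 250.2 CPM with IL4 and 211, 203 and 204 CPM in untreated cells. All 3 IL4 libraries were above all untreated ones, a 1.29-fold difference (log2 0.37, SE 0.06, adjusted p = 0.0002). The log2 change was 0.23 (adjusted p = 0.0007) after a correction for transcript GC content and 0.31 (adjusted p = 9.1e-05) without IL4 replicate 1.

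EPHA4, a receptor for ephrins of both classes on the minus strand of chromosome 2 at 221418027 to 221574202, had 4.23, 5.24 and 4.83 CPM with IL4. Untreated cells had 1.97, 3.20 and 4.93 CPM, so the groups overlapped through untreated replicate 3. The log2 change was 0.57 (SE 0.29, adjusted p = 0.161). Without untreated replicate 3 it was 0.93 and passed (adjusted p = 0.035), and without IL4 replicate 1 it was 0.65 (adjusted p = 0.121).

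EPHB2, a B-class receptor known for placing cells along the intestinal crypt, lies on the plus strand of chromosome 1 at 22710839 to 22921500. It had 49.0, 46.9 and 47.4 CPM with IL4 and 20.1, 23.1 and 20.3 CPM in untreated cells. The IL4 libraries lay close together and well above the untreated ones, 2.25-fold higher (log2 1.17, SE 0.11, adjusted p = 8.6e-08). Its 23 other fits gave log2 changes of 1.08 to 1.27, with 1.15 without IL4 replicate 1.

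EPHB3, its close relative in the same crypt system, lies on the plus strand of chromosome 3 at 184561784 to 184582409. It had 14, 20 and 21 counts with IL4 and 109, 79 and 50 counts in untreated cells. On the CPM scale it stood at 1.91, 2.62 and 2.74 with IL4 and 9.77, 8.71 and 7.47 in untreated cells. No IL4 library came near an untreated one, and the fitted level was 3.57-fold lower with IL4 (log2 -1.84, SE 0.23, adjusted p = 4.9e-06). Without IL4 replicate 1 the log2 change was -1.70.

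EPHB4, the B-class receptor that in blood vessels marks veins and binds EFNB2, lies on the minus strand of chromosome 7 at 100802565 to 100827521. It had 66.9, 54.7 and 56.0 CPM with IL4 and 81.5, 73.2 and 66.6 CPM in untreated cells, so IL4 replicate 1 overlapped untreated replicate 3. The log2 change was -0.32 (SE 0.08, adjusted p = 0.0077). It did not pass with only these groups in the fit (adjusted p = 0.118), without untreated replicate 1 (-0.22, adjusted p = 0.082) or without IL4 replicate 2 (-0.24, adjusted p = 0.071), and it was -0.43 without IL4 replicate 1 (adjusted p = 8.4e-05). EPHB4 overlaps SLC12A9 in the annotation, and the strand setting of the counting is not given in the sources used here.

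EPHA1 and EPHB6 were too low to test. EPHA1 had 4 counts in all 15 libraries, at most 1 in any. EPHB6, a receptor whose kinase domain is inactive, had 6, 4 and 3 counts with IL4 and 5, 1 and 0 counts in untreated cells. Scaled for depth, the ratio of the summed counts was 2.58 with a 95% counting interval of 0.915 to 8.28, which covers counting error only. A difference in EPHB6 was not detectable at this depth.

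EFNA1, a lipid-anchored ligand of EPHA2 on the plus strand of chromosome 1 at 155127460 to 155134857, had 13.8, 14.4 and 13.1 CPM with IL4 and 13.3, 11.5 and 13.3 CPM in untreated cells. The groups overlapped, and the log2 change of 0.12 had a 95% interval of -0.16 to 0.39 (adjusted p = 0.591), and it was also 0.12 without IL4 replicate 1.

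EFNB1, a transmembrane ligand of B-class receptors, lies on the plus strand of chromosome X at 68828997 to 68842147. It had 23.2, 21.8 and 21.0 CPM with IL4 and 32.8, 28.8 and 35.0 CPM in untreated cells. Every IL4 library was below every untreated one, 1.46-fold lower (log2 -0.55, SE 0.10, adjusted p = 0.00042). The log2 change was -0.58 without IL4 replicate 1.

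EFNB2, the ephrin that in blood vessels marks arteries, lies on the minus strand of chromosome 13 at 106489731 to 106535662. It had 5.46, 5.24 and 4.44 CPM with IL4 and 1.25, 2.20 and 0.598 CPM in untreated cells, where it had 14, 20 and 4 counts. The groups were well apart, and EFNB2 was 3.56-fold higher with IL4 (log2 1.83, SE 0.29, adjusted p = 7.1e-05). Over the other settings its log2 change ran from 1.59 to 2.35, all past the threshold, and it was 1.77 without IL4 replicate 1.

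**Figure D2:**
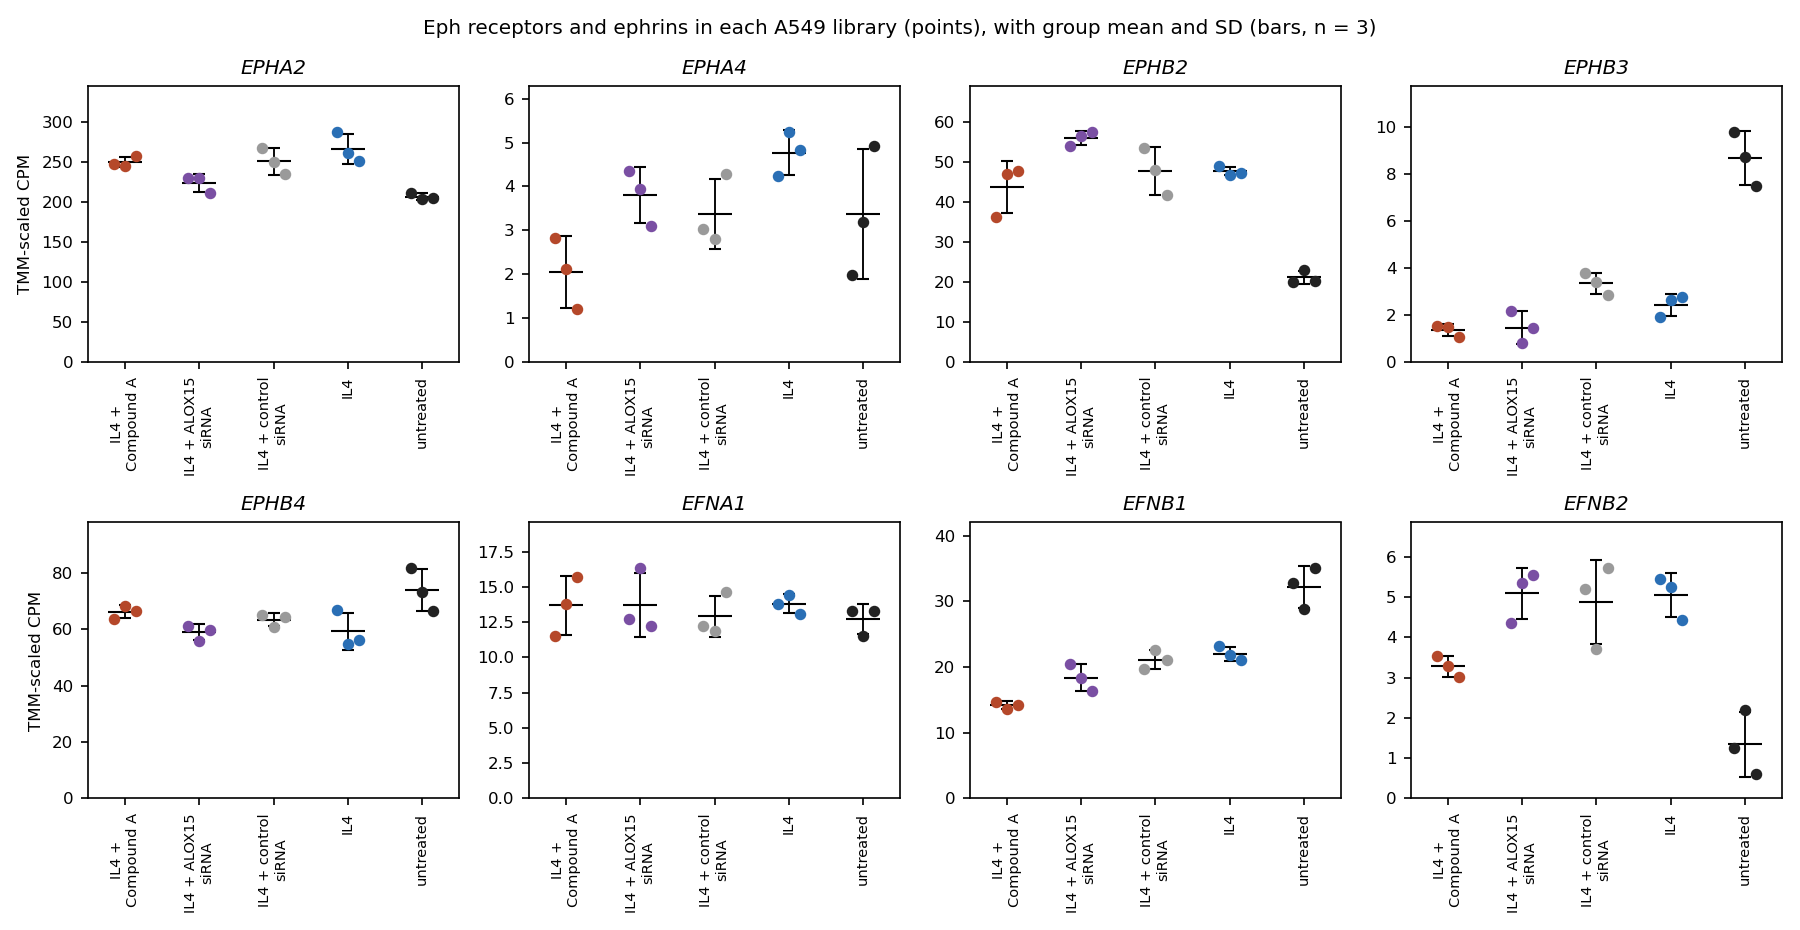
TMM-scaled CPM of the 8 tested genes in each library (points), with the group mean and SD (bars, n = 3), each panel on its own linear axis from 0. Untreated libraries stand alone at the high end for EPHB3, at 7.47 to 9.77 CPM, and at the low end for EPHB2, at 20.1 to 23.1 CPM, and the Compound A libraries are the lowest for EFNB1, at 13.6 to 14.7 CPM.

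With EPHB2 higher and EPHB3 and EPHB4 lower with IL4, the RNA shares of these 3 B-class receptors differed from those in untreated cells. EPHB1 and EPHB6, too low to test, were left out of the shares. Of the summed CPM per kb of EPHB2, EPHB3 and EPHB4, EPHB2 held 23.7% ± 1.37 with IL4 and 9.36% ± 1.12 in untreated cells (SD, n = 3 each). EPHB3 held 3.11% ± 0.782 with IL4 and 9.68% ± 0.389 in untreated cells. EPHB4 held most in both, 73.1% ± 2.14 with IL4 and 81.0% ± 0.889 in untreated cells. The shares depend on the transcript lengths used, and a shorter expressed EPHB2 transcript would raise its share in both groups.

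Taken as reads within each library, which needs no scaling between libraries, there were 25.6, 17.9 and 17.3 EPHB2 reads per EPHB3 read with IL4, against 2.06, 2.66 and 2.72 in untreated cells. The lowest IL4 library was thus far above the highest untreated one. The levels of the transmembrane ephrins EFNB1 and EFNB2 came closer to each other, with EFNB1 the higher throughout. There were 0.235, 0.241 and 0.211 EFNB2 reads per EFNB1 read with IL4, against 0.0383, 0.0766 and 0.0171 in untreated cells.

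**Figure D3:**
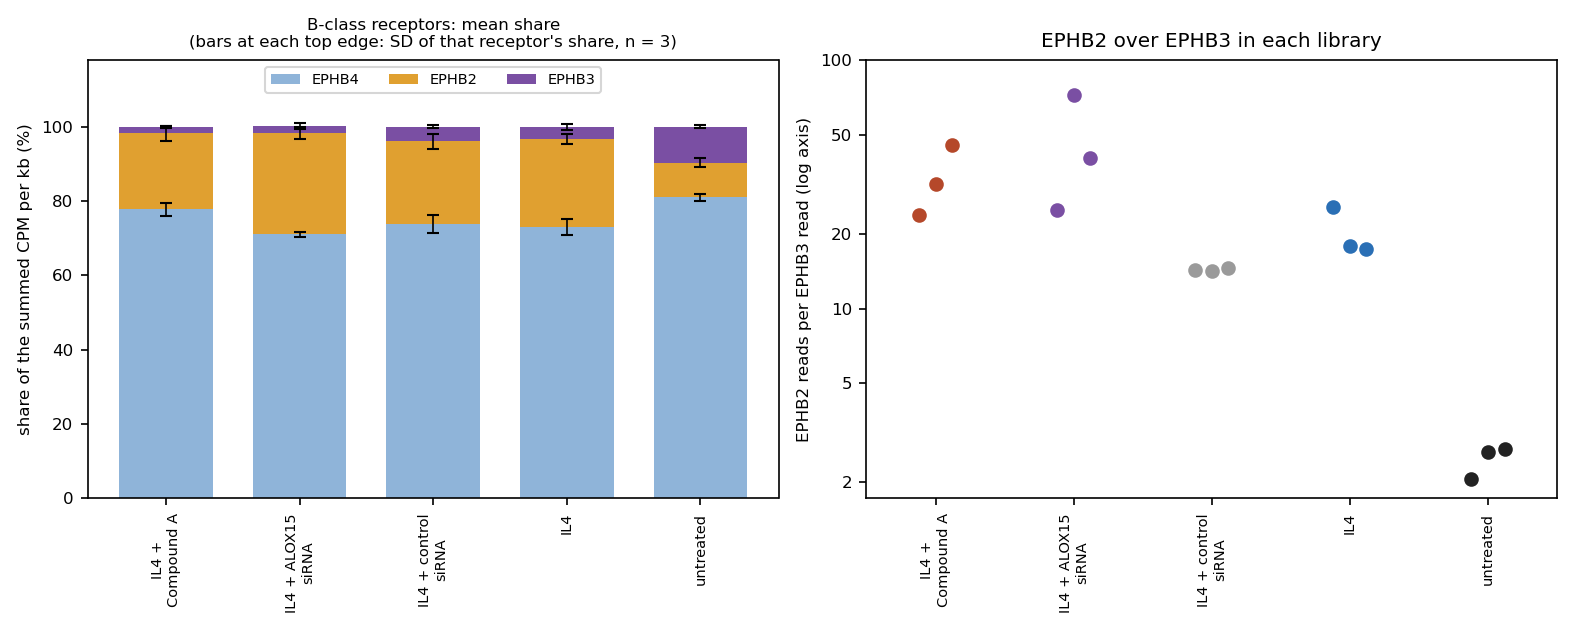
Left, mean share (%) of EPHB4, EPHB2 and EPHB3 in their summed CPM per kb by group, with the SD of each receptor's share at its upper edge (n = 3). Right, EPHB2 reads per EPHB3 read in each library on a log axis; the untreated libraries lie at 2.06 to 2.72 and every IL4-treated library at 14.1 or above.

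Each of the other 3 IL4 groups was also set against untreated cells, with the same 3 untreated libraries, so these comparisons are not independent of each other or of IL4 alone. EPHB2 and EFNB2 passed as higher and EPHB3 and EFNB1 as lower in every one. With Compound A, 3 of the 8 genes passed as higher and 2 as lower, where 12.7% and 13.5% of all genes tested did, 26.2% in all. With ALOX15 siRNA the numbers were 2 and 3, where 12.5% and 12.6% did, 25.1% in all, and with control siRNA 3 and 2, where 9.93% and 9.36% did, 19.3% in all. The libraries did not overlap with the untreated ones in 5 of the 8 genes with Compound A, 5 with ALOX15 siRNA and 6 with control siRNA, as in 44.0%, 42.4% and 36.9% of all genes tested.

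EPHB2 had log2 changes of 1.04 with Compound A, 1.41 with ALOX15 siRNA and 1.17 with control siRNA against untreated cells, with adjusted p from 3.8e-07 to 4e-09. EFNB2 had log2 changes of 1.22, 1.85 and 1.79 in the same groups, the smallest with Compound A (adjusted p = 0.0047). EPHB3 had -2.65, -2.54 and -1.38, which is 6.26-fold, 5.82-fold and 2.61-fold lower than in untreated cells. EFNB1 had -1.18, -0.80 and -0.61. The changes of EPHB3 and EFNB1 were thus numerically largest with Compound A; whether the IL4 groups differed is given by the direct comparisons between them.

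EPHA2 was higher than in untreated cells with Compound A (log2 0.27, adjusted p = 0.0024) and with control siRNA (0.28, adjusted p = 0.0029), and gave 0.11 with ALOX15 siRNA, short of the threshold (adjusted p = 0.203). EPHB4 was lower with ALOX15 siRNA (-0.33, adjusted p = 0.006), a call lost without untreated replicate 1 (adjusted p = 0.064). It gave -0.16 with Compound A (adjusted p = 0.161) and -0.23 with control siRNA (adjusted p = 0.065). The last of these passed after GC correction (-0.29, adjusted p = 0.0008), without untreated replicate 3 (adjusted p = 0.042) and without IL4 replicate 1 (adjusted p = 0.012). EPHA4 gave -0.60 with Compound A (adjusted p = 0.182), which passed without untreated replicate 1 (-0.90, adjusted p = 0.046).

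**Figure D4:**
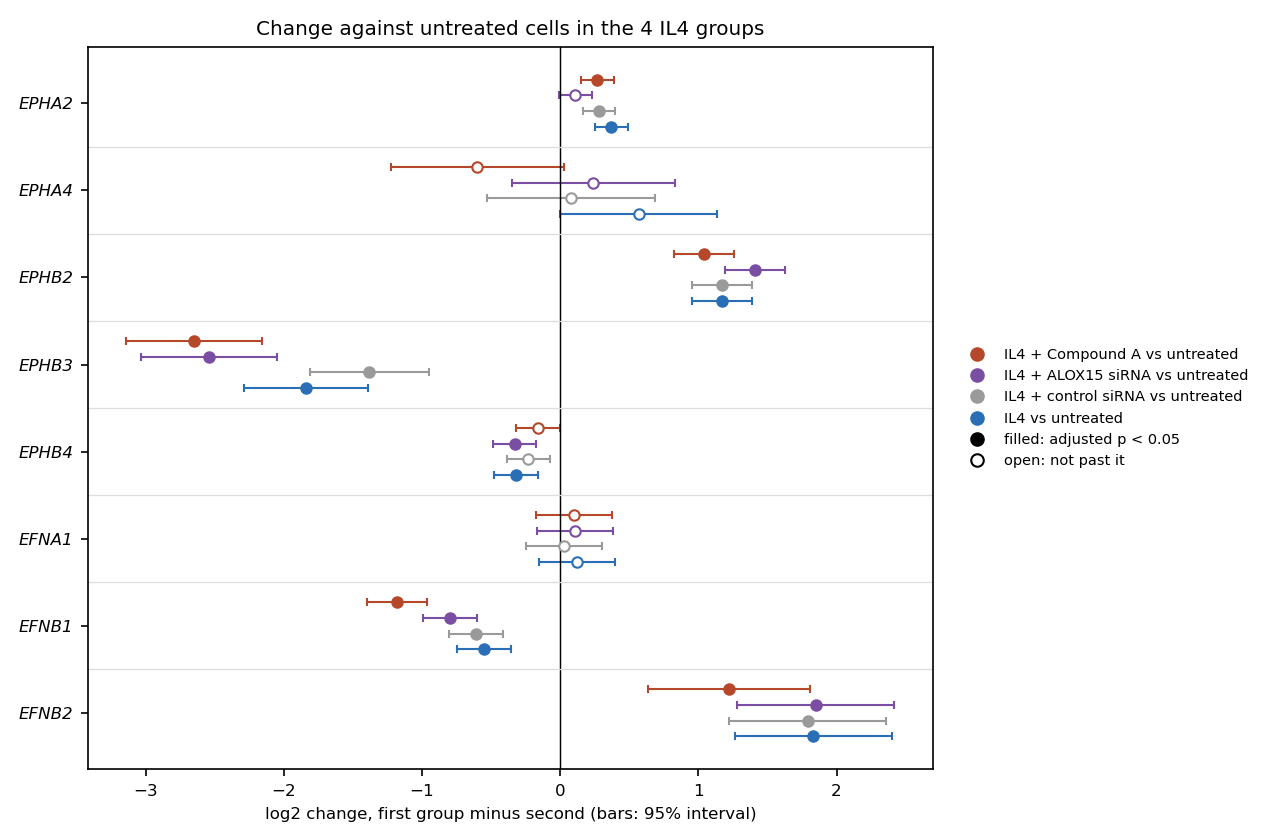
Log2 change of the 8 tested genes against untreated cells in the 4 IL4 groups (points, with 95% intervals as bars); filled points passed an adjusted p of 0.05. EPHB2 and EFNB2 lie right of 0 and EPHB3 and EFNB1 left of 0 in all 4 groups, and EPHB3 runs from -2.65 with Compound A to -1.38 with control siRNA.

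Knockdown of ALOX15 was compared with the control siRNA, both with IL4. By edgeR none of the 8 genes passed, and 0.696% of all genes tested did, 0.313% as higher and 0.383% as lower. DESeq2 also called 0, and 3 of the 8 had an unadjusted p under 0.05, as did 1140 of all 12795. These were EPHA2, EPHB2 and EPHB3, the same 3 whose groups did not overlap, as in 18.7% of all genes tested.

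EPHB3 had 16, 5 and 11 counts with ALOX15 siRNA and 26, 22 and 20 counts with control siRNA. These stand for 2.18, 0.785 and 1.42 CPM with ALOX15 siRNA and 3.76, 3.41 and 2.85 CPM with control siRNA. Every ALOX15 siRNA library was below every control one, with a log2 change of -1.16 (SE 0.30, 95% interval -1.75 to -0.57, adjusted p = 0.091). It passed without IL4 replicate 1 in the fit (-1.16, adjusted p = 0.032) and without ALOX15 siRNA replicate 1 (-1.55, adjusted p = 0.049).

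EPHB2 had 54.2, 56.6 and 57.6 CPM with ALOX15 siRNA and 53.7, 48.2 and 41.7 CPM with control siRNA, a log2 change of 0.23 (SE 0.10, adjusted p = 0.506). EPHA2 had 229.7, 230.0 and 211 CPM with ALOX15 siRNA and 267, 249.9 and 234 CPM with control siRNA, a log2 change of -0.16 (SE 0.06, adjusted p = 0.375). In both genes the nearest libraries of the groups were close together. EFNB1 gave -0.20 (95% interval -0.41 to 0.02) and EFNB2 0.05 (-0.43 to 0.53), and EPHB4, EPHA4 and EFNA1 gave -0.10, 0.16 and 0.08, all 5 with adjusted p of 0.658 or more.

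The control siRNA itself was set against IL4 alone. By edgeR 0 of the 8 genes passed, as did 0.0% of all genes tested; 0 of the 8 had an unadjusted p under 0.05, as 628 of all genes did, and DESeq2 called 0 of the 8. EPHB3, with 3.76, 3.41 and 2.85 CPM with control siRNA and 1.91, 2.62 and 2.74 CPM with IL4 alone, was the 1 gene whose groups did not overlap, as in 8.62% of all genes tested (log2 0.46, SE 0.27, adjusted p = 0.898; 0.31 without IL4 replicate 1). The other 7 had log2 changes of -0.49 (EPHA4) to 0.10 (EPHB4), and without IL4 replicate 1 of -0.57 to 0.19, with the same genes at the ends.

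Compound A was compared with IL4 alone, both with IL4. EFNB1 and EPHA4 were lower with Compound A, and EPHB3 and EFNB2 had lower values in every library without passing. Of the 8 genes, 0 passed as higher and 2 as lower, where 6.35% of all genes tested passed as higher and 8.07% as lower, 14.4% in all. The groups did not overlap in 4 of the 8, as in 31.9% of all genes tested, and the median log2 change of the 8 was -0.37 against 0.00 over all genes. DESeq2 also called 2 of the 8.

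EFNB1 had 14.7, 13.6 and 14.2 CPM in cells given Compound A, against 23.2, 21.8 and 21.0 CPM in those given IL4 alone. All Compound A libraries were far below all IL4 ones, 1.55-fold lower (log2 -0.63, SE 0.11, adjusted p = 0.001). It gave -0.60 without IL4 replicate 1 (adjusted p = 0.0015), and its adjusted p did not exceed 0.022 under any of 23 other settings. Over those settings its log2 change ran from -0.67 to -0.44.

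EPHA4 had 2.82, 2.12 and 1.21 CPM in cells given Compound A, against 4.23, 5.24 and 4.83 CPM in those given IL4 alone, 2.26-fold lower (log2 -1.18, SE 0.31, adjusted p = 0.016). The groups did not overlap, but this gene had at most 40 counts in any library. The call was lost with only these groups in the fit (adjusted p = 0.052), without Compound A replicate 2 (-1.19, adjusted p = 0.063) and without Compound A replicate 3 (-0.95, adjusted p = 0.075). It held without IL4 replicate 1 (-1.25, adjusted p = 0.0087).

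EPHB3 had 1.53, 1.49 and 1.06 CPM with Compound A, from 13, 14 and 7 counts, and 1.91, 2.62 and 2.74 CPM with IL4 alone. The log2 change was -0.81 (SE 0.31, 95% interval -1.41 to -0.20, adjusted p = 0.081). EFNB2 had 3.53, 3.29 and 3.02 CPM in cells given Compound A, against 5.46, 5.24 and 4.44 CPM in those given IL4 alone (log2 -0.61, SE 0.25, 95% interval -1.10 to -0.12, adjusted p = 0.104). In both, every Compound A library was below every IL4 library, and without IL4 replicate 1 the log2 changes were -0.95 for EPHB3 (adjusted p = 0.07) and -0.55 for EFNB2 (adjusted p = 0.227).

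EPHB2 and EPHA2, both higher with IL4, gave log2 changes of -0.13 (95% interval -0.33 to 0.07) and -0.09 (-0.21 to 0.03) with Compound A. EFNA1 gave -0.02 (-0.29 to 0.26). Without IL4 replicate 1 these 3 were -0.11, -0.04 and -0.02. EPHB4 had 63.6, 68.3 and 66.6 CPM in cells given Compound A, against 66.9, 54.7 and 56.0 CPM in those given IL4 alone, a log2 change of 0.16 (adjusted p = 0.202). It passed as higher after GC correction (0.36, adjusted p = 0.0002) and without IL4 replicate 1 (0.26, adjusted p = 0.033), and GC correction gave EPHA2 a log2 change of 0.09 and EFNA1 one of 0.14.

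Set against control siRNA instead of IL4 alone, Compound A again had lower EFNB1, at 1.49-fold (log2 -0.57, SE 0.11, adjusted p = 0.005), and lower EPHB3, at 2.40-fold (-1.26, SE 0.30, adjusted p = 0.016). These were 0 genes higher and 2 lower of the 8, where 1.86% and 3.42% of all genes tested passed, 5.28% in all. In 3 of the 8 the groups did not overlap, as in 30.6% of all genes tested. The 2 comparisons share the Compound A libraries. EFNB1 passed under all 23 other settings, while EPHB3 lost its call without Compound A replicate 2 (adjusted p = 0.061), Compound A replicate 3 (0.075), control siRNA replicate 1 (0.079) or control siRNA replicate 2 (0.055).

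EFNB2 gave -0.57 against control siRNA (SE 0.26, adjusted p = 0.220) and EPHA4 gave -0.68 (SE 0.33, adjusted p = 0.258). The Compound A libraries of EFNB2 were below all control siRNA ones, and those of EPHA4 overlapped them. EPHA2, EPHB2, EPHB4 and EFNA1 lay between -0.13 and 0.08. Summed fibroblast and mural markers, mostly COL1A1, also differed between these groups, at 8.28 to 11.1 CPM with Compound A, 14.8 to 16.6 CPM with control siRNA, 17.4 to 24.7 CPM with IL4 alone and 7.49 to 9.05 CPM in untreated cells. COL1A2 was at 0 in every library, and 2 of these 6 markers could be tested. Summed immune markers stood at 7.64 to 12.4 CPM with Compound A, 12.3 to 15.8 CPM with control siRNA, 16.9 to 21.8 CPM with IL4 alone and 11.1 to 14.8 CPM in untreated cells, with PTPRC, CD3E and MS4A1 at 0 in every library. The part of either marker list in the EFNB1 and EPHA4 results was not tested.

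**Figure D5:**
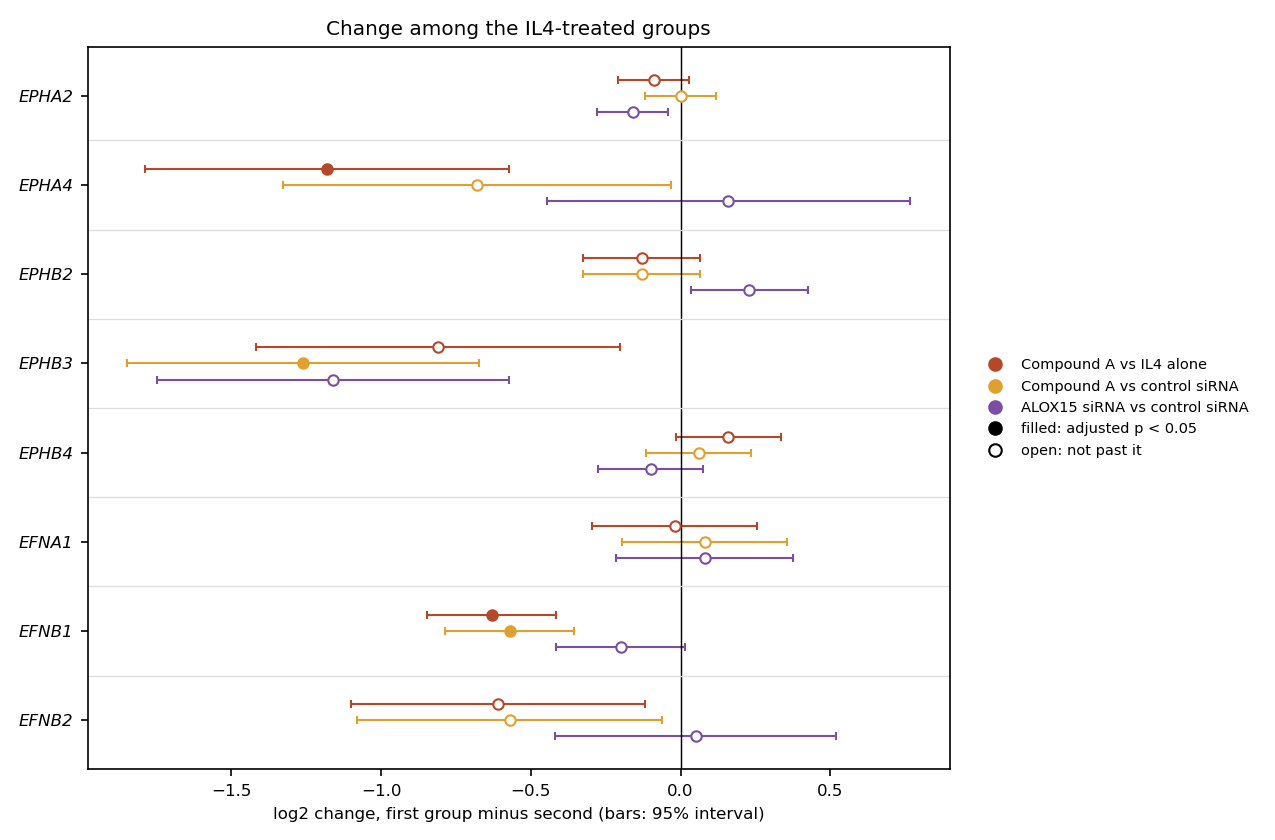
Log2 change of the 8 tested genes among the IL4-treated groups (points, with 95% intervals as bars); filled points passed an adjusted p of 0.05. EFNB1 is left of 0 and filled in both Compound A comparisons, at -0.63 and -0.57, and no point of the ALOX15 siRNA comparison is filled.

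Whether the effect of Compound A differed from that of ALOX15 siRNA was tested as the difference between Compound A minus IL4 alone and ALOX15 siRNA minus control siRNA, which share no libraries. By edgeR 0 of the 8 genes passed, where 5.14% of all genes tested did, 1.94% as higher and 3.2% as lower, and DESeq2 called 0. EPHA4, EPHB2, EPHB4 and EFNB1 had an unadjusted p under 0.05, as did 2537 of all 12795. The difference was -1.34 for EPHA4 (SE 0.44, adjusted p = 0.083), -0.44 for EFNB1 (adjusted p = 0.118), -0.36 for EPHB2 (adjusted p = 0.168) and 0.27 for EPHB4 (adjusted p = 0.229). EPHA4 passed without untreated replicate 1 (-1.34, adjusted p = 0.048), without IL4 replicate 1 (-1.41, adjusted p = 0.044) and after GC correction (-1.36, adjusted p = 0.027). EPHB4 passed without IL4 replicate 1 (0.36, adjusted p = 0.038) and after GC correction (0.41, adjusted p = 0.0041). EFNB1 and EPHB2 gave -0.40 and -0.34 without IL4 replicate 1 and did not pass. For EPHB3, lower in every library under both treatments, the difference was 0.35 (adjusted p = 0.702), and 0.21 without IL4 replicate 1.

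The other 12 family genes, EPHA3, EPHA5, EPHA6, EPHA7, EPHA8, EPHA10, EPHB1, EFNA2, EFNA3, EFNA4, EFNA5 and EFNB3, gave 7 that could be tested. EPHA10, a receptor with an inactive kinase domain, averaged 3.32 ± 0.476 CPM with IL4 and 1.87 ± 0.164 CPM in untreated cells (SD, n = 3 each) and passed as higher (log2 0.81, SE 0.24, adjusted p = 0.02). It was the 1 call of the 7 in that comparison, where 22.9% of all genes tested passed. The call was lost under 5 of 23 other settings, including without untreated replicate 2 (adjusted p = 0.064) and without IL4 replicate 1 (0.096). Compound A against IL4 alone gave 1 call of the 7 (EPHA7), where 14.4% of all genes tested passed. Compound A against untreated cells gave 1, again EPHA10 as higher (log2 0.76, edgeR adjusted p = 0.023), where 26.2% of all genes tested passed. That EPHA10 call was lost under 3 of 23 other settings. ALOX15 siRNA against untreated cells gave 2 (EFNA5 and EPHA5), where 25.1% did. EPHA7 averaged 0.873 ± 0.238 CPM in cells given Compound A, against 1.86 ± 0.515 CPM in those given IL4 alone (log2 -1.04, SE 0.33, adjusted p = 0.04), a call lost under 6 of 21 other settings, including without any 1 of the Compound A libraries or without IL4 replicate 1 (0.207) or 2 (0.085). EFNA5, the most abundant of the 12 per length, averaged 55.6 ± 0.671 CPM with ALOX15 siRNA, 47.4 ± 2.36 CPM with control siRNA and 43.4 ± 2.79 CPM in untreated cells. It passed against untreated cells (log2 0.35, adjusted p = 0.0027) and not against control siRNA (0.23, adjusted p = 0.320). EPHA5, an A-class receptor, averaged 3.29 ± 0.605 CPM with ALOX15 siRNA and 1.50 ± 0.139 CPM in untreated cells (log2 1.10, SE 0.35, adjusted p = 0.025), a call lost under 6 of 23 other settings, including without any 1 of the untreated libraries (adjusted p of 0.055 to 0.065) or without ALOX15 siRNA replicate 2 (0.095) or 3 (0.059).

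Genes that act with the receptors inside the cell were counted in 4 lists. Of 19 adaptors and kinases of forward signalling, 2 were higher and 2 lower with IL4 than in untreated cells, where 11.2% and 11.6% of all genes tested were. PXN, which encodes the focal adhesion protein paxillin, averaged 135 ± 16.3 CPM with IL4 and 95.6 ± 3.30 CPM in untreated cells (log2 0.50, adjusted p = 4.9e-05), and the adaptor SHC1 had a log2 change of 0.29 (adjusted p = 0.00034). The kinase ABL1 and the adaptor CRKL gave small falls, which lost their calls under 11 and 16 of 23 other settings. The median log2 change of the 19 was 0.00, against -0.02 over all genes tested.

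Of 15 tested regulators of small GTPases, 1 was higher and 4 lower with IL4, to be read against the same 11.2% and 11.6% of all genes. The 2 exchange factors of the Vav family that are known to bind active Eph receptors moved apart. VAV2 averaged 44.0 ± 3.50 CPM with IL4 and 30.7 ± 1.52 CPM in untreated cells (log2 0.52, SE 0.08, adjusted p = 0.00012), while VAV3 averaged 11.0 ± 0.589 CPM with IL4 and 20.0 ± 2.01 CPM in untreated cells (log2 -0.87, SE 0.12, adjusted p = 1.7e-05). Both kept their calls under 23 other settings. CHN1, which encodes a chimaerin that shuts off Rac, averaged 15.5 ± 0.972 CPM with IL4 and 20.8 ± 3.82 CPM in untreated cells (log2 -0.41, adjusted p = 0.016), a call lost with only these groups in the fit and without untreated replicate 3, with adjusted p up to 0.146.

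Of 10 tested genes of B ephrin reverse signalling, 2 were higher and 0 lower with IL4, against those same shares. STAT3, a transcription factor that B ephrins can recruit, averaged 194 ± 17.6 CPM with IL4 and 148 ± 7.75 CPM in untreated cells (log2 0.38, adjusted p = 0.00015), and DVL1, an adaptor of reverse and Wnt signalling, had a log2 change of 0.43 (adjusted p = 0.006), which ran from 0.19 to 0.58 over 23 other settings and missed the threshold with only these groups in the fit (adjusted p = 0.06). Of 16 tested genes that shed, cleave or switch off the receptors and ephrins, 1 was higher (PSENEN) and 1 lower (PTPN11), both lost under 9 or more of 23 other settings. The medians of these 3 lists were 0.00, 0.06 and 0.05, close to that of all genes.

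With Compound A, DVL1 averaged 33.0 ± 1.17 CPM against 48.2 ± 7.32 CPM under IL4 only (log2 -0.55, SE 0.11, adjusted p = 0.0028; -0.62 to -0.24 over other settings), and PARD6B, a polarity protein that EFNB1 binds, averaged 22.4 ± 0.825 CPM against 14.7 ± 3.32 CPM (log2 0.61, SE 0.15, adjusted p = 0.0095; 0.065 with only these groups in the fit). These were the 2 calls, 1 lower and 1 higher, among the 10 genes of reverse signalling. Of the adaptors 2 were higher (ABL2 and PTK2) and 1 lower (GRB7), of the GTPase regulators 1 was higher (ELMO2), and of the shedding and silencing genes 2 were higher (CBL and PTPN11) and 1 lower (MMP2), where 6.35% of all genes tested were higher and 8.07% lower. PTK2 and ELMO2 each lost their call under 11 of 23 other settings, PTPN11 under 8, GRB7 under 3, CBL under 2 and ABL2 under 1. MMP2, a matrix metalloproteinase, averaged 9.44 ± 0.379 CPM in cells given Compound A, against 13.8 ± 1.55 CPM in those given IL4 alone (log2 -0.55, adjusted p = 0.0087; 0.059 with only these groups in the fit), and it was also lower against control siRNA (-0.70, adjusted p = 0.0034). ALOX15 siRNA against control siRNA gave 0 calls in each of these 5 lists by edgeR and by DESeq2, with 2, 1, 1, 0 and 1 genes at an unadjusted p under 0.05 in the family, adaptor, GTPase, reverse signalling and shedding lists, where 1140 of all 12795 had one.

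Among the genes described, EPHB3 and EFNB2 had the widest range of group means of their kind, 2.47 and 1.85 on the log2 CPM scale. The genes whose log2 CPM followed EPHB3 most closely over the 15 libraries were BUB1 (Pearson r = 0.947), CKAP2L (0.945), NUF2 (0.944), RBP4 (0.943) and PLA2G4A (0.938). Within the 12 IL4-treated libraries their r was 0.80 to 0.87. For EFNB2 they were DOCK4 (0.955), ARHGEF18 (0.951), KRT6A (0.944), EVA1A (0.940) and ATP10A (0.934), with r of 0.58 to 0.78 within the IL4-treated libraries. These values are descriptions of genes ranked by likeness, and the points over the 15 libraries include the gap between untreated and IL4-treated libraries.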

How the data were processed

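RNA-seq libraries of A549 cells, 5 groups of 3, were used as the authors deposited them: RSEM expected counts (estimated counts) per gene, unscaled, in 1 table. Reads were aligned with Bowtie2 2.1.0 and quantified with RSEM 1.2.15 on hg38, per the submitters' processing notes; annotation and strand setting are not given in the sources used here. Counts were rounded (none of the family's values was fractional), filtered with filterByExpr to 12795 genes, scaled by TMM and fitted together with edgeR 4.0.16 in R 4.3.3 (robust quasi-likelihood, 1 coefficient per group, common biological coefficient of variation 0.0731). P-values were adjusted by Benjamini-Hochberg over all genes tested, at 0.05. The SE is the absolute log2 change over the square root of F, and 95% intervals are normal ones from it. The fit was tested on simulated data. Gene models came from GENCODE on GRCh38, promoters from RefSeq.

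The genes, lists, motifs and comparisons were chosen with earlier results of these data known. The text names all 10 genes, up to 2 called genes in each direction per list in the comparisons described, and the 5 genes most like the receptor and the ephrin with the widest range of group means. Alternatives were scaling by RLE or by the upper quartile, leaving out the filter, a filter of 1 CPM in 3 libraries, DESeq2 1.42.0, the compared groups only, a replicate block, GC correction (loess span 0.3, a GC value for 98.2% of tested genes) and each library left out in turn.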

Additional observations from a re-analysis of the deposited data

Results flagged for a closer look

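For 2 genes of the lists around the receptors, the effect of Compound A (against IL4 alone) differed from that of ALOX15 siRNA (against control siRNA) by the test of the difference itself. ABL2, a kinase of forward signalling, differed by 0.35 on the log2 scale (SE 0.10, edgeR adjusted p = 0.044). It averaged 113 ± 10.2 CPM in cells given Compound A, against 88.2 ± 4.67 CPM in those given IL4 alone, and 90.6 ± 2.19 CPM with ALOX15 siRNA and 90.6 ± 3.87 CPM with control siRNA (SD, n = 3 each). The call was lost under 12 of 23 other settings, with adjusted p up to 0.151. CBL, a ubiquitin ligase that sends receptors to degradation, differed by 0.39 (SE 0.11, edgeR adjusted p = 0.046). It averaged 72.3 ± 3.22 CPM in cells given Compound A, against 58.2 ± 6.33 CPM in those given IL4 alone, and 59.0 ± 1.54 CPM with ALOX15 siRNA and 62.0 ± 3.57 CPM with control siRNA. That call was lost under 15 of 23 other settings, with adjusted p up to 0.135.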

How the results depend on the processing

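Over 23 alternatives, the 25 calls on the 8 tested genes gave 575 fits, of which 564 passed in the same direction, 11 no longer passed and 0 changed sign. Of the 23, 15 left out 1 library each, in many cases from a group outside the comparison. Such fits keep all the compared libraries and hardly move the log2 change, so these numbers of fits overstate the stability. Fitting only the compared groups called 1 gene in place of 2 for Compound A against IL4 alone, and GC correction called 2 in place of 0 for the difference between the effects of Compound A and of ALOX15 siRNA. With each library left out, these counts ran from 1 to 3 and from 0 to 2, that for ALOX15 siRNA against control siRNA from 0 to 1 (main count 0) and that for Compound A against control siRNA from 1 to 2 (main count 2).

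Changes of sign occurred in uncalled values near 0. GC correction gave EPHA2 0.09 and 0.11 with Compound A against IL4 alone and control siRNA. It gave EFNA1 0.14 with Compound A against IL4 alone, -0.02 with control siRNA against untreated and 0.03 for the difference, and EFNB1 0.02 with control siRNA against IL4. Upper-quartile scaling gave EPHB2 -0.02, and the compared groups only -0.00, with control siRNA against IL4. With each library left out, log2 changes ran from -0.05 to 0.05 for EPHA2 (Compound A against control siRNA), -0.22 to 0.43 and -0.06 to 0.58 for EPHA4 (control siRNA and ALOX15 siRNA against untreated), and -0.10 to 0.09 for EPHB2 (control siRNA against IL4). For EFNA1 they ran from -0.12 to 0.09 (Compound A against IL4), -0.06 to 0.18 (ALOX15 siRNA against control siRNA), -0.02 to 0.19 (Compound A against control siRNA), -0.06 to 0.09 and -0.02 to 0.20 (control siRNA and ALOX15 siRNA against untreated) and -0.20 to 0.04 (the difference). For EFNB2 they ran from -0.10 to 0.18 (ALOX15 siRNA against control siRNA) and -0.18 to 0.11 (control siRNA against IL4). The cause was not tested.

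Calls over all genes moved more: 2925 for IL4 against untreated, 1466 with the compared groups only; 1846 for Compound A against IL4 alone, 397 to 2508 under other settings and 769 to 3016 with a library left out. For ALOX15 siRNA against control siRNA, 89 became up to 325, and 35 to 272 with a library left out. For Compound A against control siRNA, 675 became up to 1768, and 220 to 1638 with a library left out. For the difference, 658 became up to 1339, and 324 to 1153 with a library left out. Same-numbered libraries did not deviate together in every comparison. Their r was 0.0998, 0.0232 and -0.0432 for Compound A and IL4, and 0.286, 0.0769 and 0.11 for IL4 and untreated. Of 15 libraries, 9 correlated best with their own number, so a shared effect of the number is not excluded. No pairing is stated in the labels, and the main fit did not take the numbers as pairs. The replicate block changed 1 call on these genes, EPHB4 with control siRNA against untreated (-0.22, adjusted p = 0.043). Depth limits EPHA1, EPHB6, EPHB3, EPHA4 and EFNB2, each with at most 109 counts in a library.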
